A study of Mus musculus with 9 samples.

Results

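Astrocytes keep the fluid around neurons in order: they take up released glutamate, turn it into glutamine, move water and potassium, and share small molecules through gap junctions. The 9 genes described here carry out or mark these tasks. Slc1a2 and Slc1a3 encode the glial glutamate transporters, Glul the glutamine synthetase, Aqp4 the water channel of astrocyte endfeet, Atp1b2 a beta subunit of the sodium pump, and Gja1 and Gjb6 the connexins of astrocyte gap junctions. Aldh1l1, an enzyme of folate metabolism, and the calcium-binding protein gene S100b are used as identity markers. The genes were chosen by name for these roles, with earlier results of these data known. All 9 were found by symbol among the 40879 gene symbols of the count table, and all 9 were among the 15351 with enough counts to be tested.

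RNA came from whole spinal cord of wild-type (WT) mice in 3 groups of 3 libraries. Naive mice (CON) had no disease. Mice with experimental autoimmune encephalomyelitis (EAE), an immune attack on myelin used as a model of multiple sclerosis, received vehicle (EAE) or GV1001 (EGV), a peptide derived from telomerase. The labels give neither age, sex, strain, dose, day of sampling nor disease score, and they do not say whether libraries of a group are separate animals, so the spread between them may be technical. The reads mark the 3′ ends of transcripts. In whole tissue, fewer astrocytes and less RNA per astrocyte cannot be told apart.

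Astrocytes take glutamate from the synapse with sodium-coupled transporters. Slc1a2 encodes GLT-1 and Slc1a3 encodes GLAST. Glutamine synthetase then converts glutamate to glutamine, which neurons take back to make transmitter. In the cord Glul and S100b are also expressed by oligodendrocytes, S100b is made by Schwann cells of the nerve roots as well, and Aqp4 and S100b also occur in ependyma, the lining of the central canal. Because cell number and RNA per cell cannot be told apart in whole tissue, none of the 9 is a count of astrocytes.

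Total counts per library lay between 5247246 and 6174870, and levels are given as CPM, counts scaled to library size with TMM factors, which ran from 0.975 to 1.03. The 9 genes together took 0.823% to 0.863% of the counts in naive, 0.713% to 0.918% in vehicle and 0.761% to 0.831% in GV1001 libraries. Markers of astrocytes, neurons and myelin were all detected: 32 of 32 general astrocyte, 16 of 16 neuron and 16 of 16 oligodendrocyte genes had enough counts to be tested. Diseased libraries were unequal. Markers of microglia and macrophages took 0.0501% to 0.0607% of counts in naive libraries, 0.129% to 0.91% in vehicle and 0.0661% to 0.305% in GV1001 libraries. Vehicle replicate 1 was at the top and vehicle replicate 2 at the bottom of the vehicle range, and results that depend on 1 of them are given beside the value without it.

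For most of the 9 genes, naive and diseased libraries overlapped. In vehicle EAE against naive, the median of their log2 fold changes was 0.10, beside −0.0047 for all tested genes, and the members ran from −0.40 to 0.68. Aldh1l1 and Slc1a3 lay higher and S100b lower in every one of the 6 EAE libraries than in any naive library. Of all tested genes, 4.55% lay higher and 3.74% lower in this way. None of the 9 passed an adjusted p of 0.05 in edgeR's quasi-likelihood test (Benjamini-Hochberg over all genes). In vehicle against naive only 3 of all 15351 tested genes did, so not passing does not show that levels were equal. The median SD of log2 CPM over the 9 genes was 0.101 for naive, 0.218 for vehicle and 0.113 for GV1001 libraries, and over all genes 0.163, 0.264 and 0.216.

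**Figure D1:**
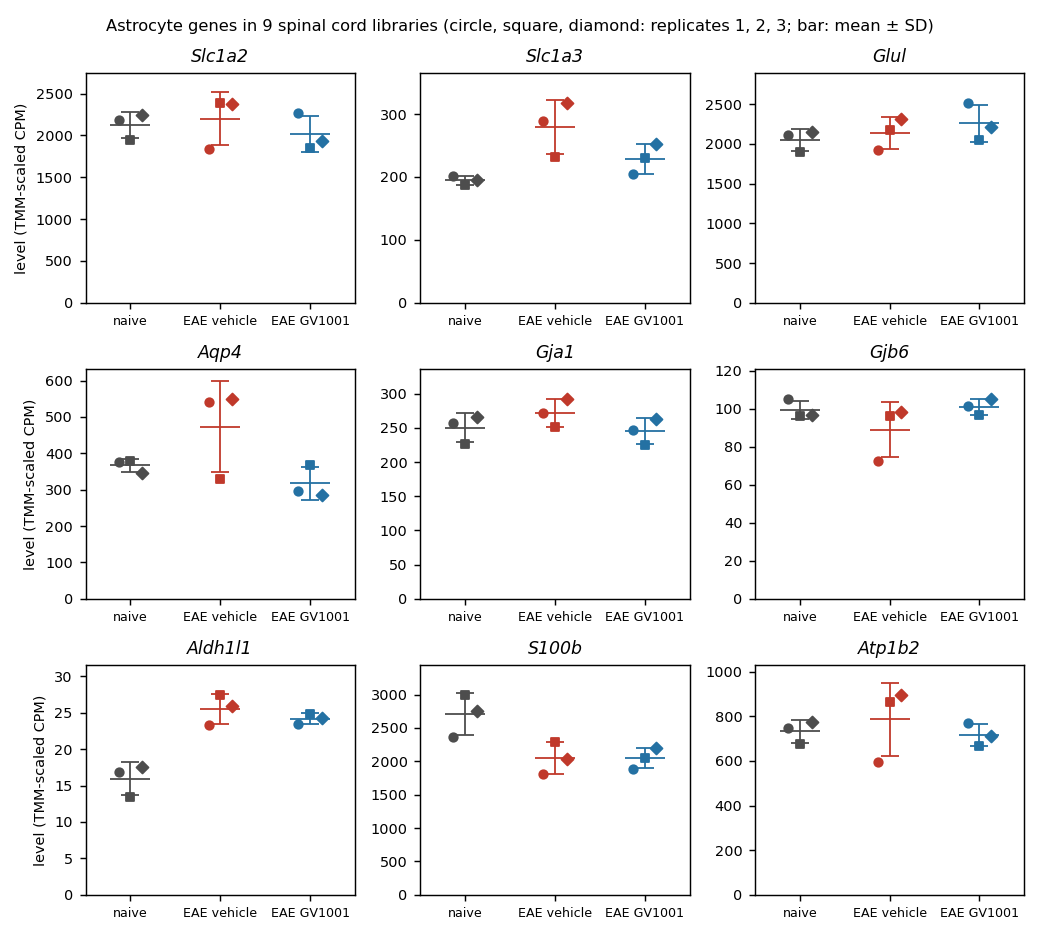
Level of each of the 9 genes in TMM-scaled CPM (vertical axes start at 0) in naive, EAE vehicle and EAE GV1001 libraries. Points are libraries, marked by replicate, and bars are the mean ± SD (n = 3). Aldh1l1 and S100b separate the 3 naive libraries from all 6 EAE libraries, while Slc1a2 and Gja1 overlap in all groups.

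The main glutamate transporter did not differ beyond its spread. Slc1a2 was at 2179, 1943 and 2247 CPM in naive replicates 1 to 3, at 1833, 2385 and 2379 CPM in vehicle, and at 2264, 1852 and 1938 CPM in GV1001 libraries. The groups overlapped fully, and the lowest value was that of vehicle replicate 1. Vehicle and naive differed by 0.05 ± 0.134 (SE) on the log2 scale, with a 95% interval of −0.246 to 0.347, and GV1001 and vehicle by −0.12 ± 0.134 (−0.421 to 0.173). Without vehicle replicate 1 these were 0.17 and −0.24. Intervals of this kind are not adjusted over genes.

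Slc1a3, the second glial transporter, lay higher in every EAE library than in any naive one. It was at 201, 187 and 196 CPM in naive libraries, 288, 232 and 317 CPM in vehicle and 205, 231 and 252 CPM in GV1001 libraries. All vehicle libraries lay above all naive ones, and the lowest GV1001 library lay just above the highest naive one, while vehicle and GV1001 overlapped. In vehicle against naive it was 1.43-fold higher (log2 0.52 ± 0.125, interval 0.245 to 0.795), with an adjusted p of 0.0728 in edgeR. In GV1001 against vehicle the log2 fold change was −0.28 ± 0.124 (adjusted p 0.54 in edgeR), and in GV1001 against naive 0.24 ± 0.125 (0.729).

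The balance of the transporters was read as a ratio. The ratio of Slc1a2 to Slc1a3 counts stood at 10.8, 10.4 and 11.5 for the naive libraries, at 6.36, 10.3 and 7.5 for vehicle and at 11.1, 8.02 and 7.68 for GV1001. It was lower in each vehicle library than in any naive library, although vehicle replicate 2, at 10.3, lay next to naive replicate 2, at 10.4. GV1001 replicate 1 lay within the naive range. These ratios between members were chosen after the counts were seen and are given as values.

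Glul, whose product uses the glutamate that is taken up, was at 2108, 1895 and 2155 CPM in naive, 1919, 2172 and 2321 CPM in vehicle and 2514, 2053 and 2214 CPM in GV1001 libraries. The groups overlapped. Set against naive, the log2 fold change was 0.06 ± 0.12 for vehicle (interval −0.206 to 0.322) and 0.14 ± 0.12 for GV1001 (−0.125 to 0.403). The ratio of Glul to Slc1a2 counts was steady among naive libraries at 0.967 ± 0.00818 (SD, n = 3). It was 1.12 ± 0.0189 in GV1001 libraries and 0.978 ± 0.0681 in vehicle libraries. Each GV1001 library, from 1.11 to 1.14, lay above the other 6.

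Aqp4, the endfoot water channel, had the largest spread of the 9, relative to its mean, in the vehicle group. It was at 376, 378 and 346 CPM in naive libraries, 541, 328 and 549 CPM in vehicle and 297, 368 and 286 CPM in GV1001 libraries. Vehicle replicates 1 and 3 lay above all other libraries, and vehicle replicate 2 lay below every naive one. The log2 fold change was 0.37 ± 0.179 in vehicle against naive (adjusted p 0.295 in edgeR). In GV1001 against vehicle it was −0.58 ± 0.18, or 0.671-fold, which was the largest difference of the 9 in that comparison (adjusted p 0.528 in edgeR). Without vehicle replicate 2 these values were 0.58, with an adjusted p of 0.0154 (0.0154 to 0.591 over the alternatives), and −0.79, with an adjusted p of 0.0547 (0.0547 to 0.91).

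Atp1b2, which holds the sodium pump of astrocytes in the membrane, was at 745, 677 and 776 CPM in naive, 597, 866 and 895 CPM in vehicle and 769, 669 and 711 CPM in GV1001 libraries. Vehicle libraries held both the lowest and the highest values. On the log2 scale vehicle differed from naive by 0.10 ± 0.146 (interval −0.22 to 0.422), and GV1001 from vehicle by −0.13 ± 0.146 (−0.455 to 0.187). Without vehicle replicate 1 these were 0.27 and −0.30, and over all libraries left out in turn −0.0025 to 0.27 and −0.30 to −0.04. In vehicle replicate 1 Aqp4 was near its highest level and Atp1b2 at its lowest.

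Gja1, the connexin 43 gene, was at 258, 226 and 266 CPM in naive, 271, 251 and 292 CPM in vehicle and 248, 225 and 263 CPM in GV1001 libraries. All groups overlapped, with a log2 fold change of 0.12 ± 0.103 in vehicle against naive and −0.15 ± 0.103 in GV1001 against vehicle. Gjb6, the connexin 30 gene, was at 105, 96.4 and 96.6 CPM in naive, 72.6, 96.2 and 98.4 CPM in vehicle and 102, 96.6 and 105 CPM in GV1001 libraries. Vehicle replicate 1 was the one library with a low value, and the log2 fold changes were −0.16 ± 0.122 and 0.18 ± 0.122 in the same 2 comparisons. Without that library they were −0.03 and 0.05, and leaving out each library in turn gave −0.24 to −0.03 and 0.05 to 0.26. The ratio of Gja1 to Gjb6 counts was 2.35 to 2.76 in naive, 2.61 to 3.74 in vehicle and 2.33 to 2.51 in GV1001 libraries. Vehicle libraries lay above GV1001 libraries in this ratio and overlapped naive ones.

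Aldh1l1 was the member with the largest fold difference. Its levels were 16.8, 13.4 and 17.6 CPM in naive libraries, 23.3, 27.4 and 25.9 CPM in vehicle and 23.5, 24.9 and 24.3 CPM in GV1001 libraries, from raw counts of 77 to 95 in naive and 124 to 153 in EAE libraries. Every EAE library lay above every naive one, and the 2 EAE groups overlapped. It was 1.6-fold higher in vehicle than in naive (log2 0.68 ± 0.152, interval 0.346 to 1.02, adjusted p 0.0703 in edgeR). It was 1.52-fold higher in GV1001 than in naive (log2 0.60 ± 0.153, interval 0.267 to 0.94, adjusted p 0.64). The difference between the EAE groups was −0.08 ± 0.145 on the log2 scale.

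S100b lay on the other side of naive. It was at 2370, 2993 and 2753 CPM in naive libraries, 1808, 2296 and 2041 CPM in vehicle and 1891, 2051 and 2198 CPM in GV1001 libraries. Every EAE library lay below every naive one, with vehicle replicate 2 and naive replicate 1 closest to each other. On the log2 scale vehicle differed from naive by −0.40 ± 0.13 (interval −0.688 to −0.114, adjusted p 0.122 in edgeR), and GV1001 from naive by −0.40 ± 0.13 (adjusted p 0.64), or 0.757-fold and 0.756-fold. Between the EAE groups it was −0.0014 ± 0.13, with an interval of −0.288 to 0.285.

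Markers of the other cells that make S100b were read in the same libraries. The 16 oligodendrocyte genes took 2.02% to 2.23% of counts in naive, 1.65% to 1.99% in vehicle and 1.71% to 1.88% in GV1001 libraries, lower in every EAE library, and their most abundant gene Mbp had a log2 fold change of −0.32 ± 0.146 in vehicle against naive. The 12 Schwann cell genes took 0.107% to 0.156% in naive, 0.0626% to 0.254% in vehicle and 0.243% to 0.353% in GV1001 libraries. The 10 listed ependymal genes, of which 9 were tested, took 0.00832% to 0.00927% in naive, 0.00926% to 0.0126% in vehicle and 0.00805% to 0.0111% in GV1001 libraries. No gene of these 3 lists was without counts in a group. The part of these cells in the S100b values was not tested. In an annotation of an earlier build, S100b overlaps Dip2a on the opposite strand, and the strand setting of the counting is not given in the sources used here. Dip2a had 432 to 581 counts per library and S100b 9768 to 17176.

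The promoters of the 3 genes that separated EAE from naive libraries are shown because these genes lay on both sides of naive, Slc1a3 and Aldh1l1 above and S100b below. The sequences are from RefSeq on build GRCm38.p6, an earlier build than the one the counts were made on, and cover the 250 bases before the annotated start. Promoters of 7 of the 9 genes were searched for short motifs, and those of Aqp4 and Atp1b2 were not. Capitals mark matches, on either strand, to a STAT motif spelled TTCNNNGAA, an AP-1 motif spelled TGANTCA or a GC box spelled GGGCGG. They also mark the motif known as the CCAAT box, by those letters. The last motif searched was the TATA box, with the letters TATAAA. None of these motifs was allowed a mismatch, and no marked matches overlap.

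Slc1a3 (chr15:8710808-8711057, minus strand): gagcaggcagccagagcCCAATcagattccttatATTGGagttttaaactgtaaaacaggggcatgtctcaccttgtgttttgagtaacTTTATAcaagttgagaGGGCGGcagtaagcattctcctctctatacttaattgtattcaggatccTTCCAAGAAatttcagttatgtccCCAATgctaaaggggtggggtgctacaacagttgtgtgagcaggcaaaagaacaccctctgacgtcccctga
Aldh1l1 (chr6:90550543-90550792, plus strand): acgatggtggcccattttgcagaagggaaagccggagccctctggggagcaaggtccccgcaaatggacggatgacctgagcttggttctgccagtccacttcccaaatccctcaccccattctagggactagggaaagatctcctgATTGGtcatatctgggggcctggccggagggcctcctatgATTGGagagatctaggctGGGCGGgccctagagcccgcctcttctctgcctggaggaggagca
S100b (chr10:76253586-76253835, plus strand): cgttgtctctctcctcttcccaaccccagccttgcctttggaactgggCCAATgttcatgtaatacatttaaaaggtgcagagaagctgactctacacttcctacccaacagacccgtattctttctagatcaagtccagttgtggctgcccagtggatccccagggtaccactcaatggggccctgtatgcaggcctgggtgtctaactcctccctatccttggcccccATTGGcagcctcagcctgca

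The Slc1a3 promoter held 1 match to the STAT motif, which starts 96 bases before the gene's start, with 1 GC box, 1 TATA box and 3 CCAAT boxes. The Aldh1l1 promoter held 1 GC box and 2 CCAAT boxes, and the S100b promoter 2 CCAAT boxes. Among 32851 RefSeq mouse promoters of the same length, 7.02% held the STAT motif, 6.75% the AP-1 motif, 32.7% the GC box, 33.8% the CCAAT box and 12.4% the TATA box. The AP-1 motif was matched in 1 of the 7 promoters, that of Gja1, and the STAT motif in that of Slc1a3 alone. A match describes letters in this window and says nothing of a factor bound there.

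**Figure D2:**
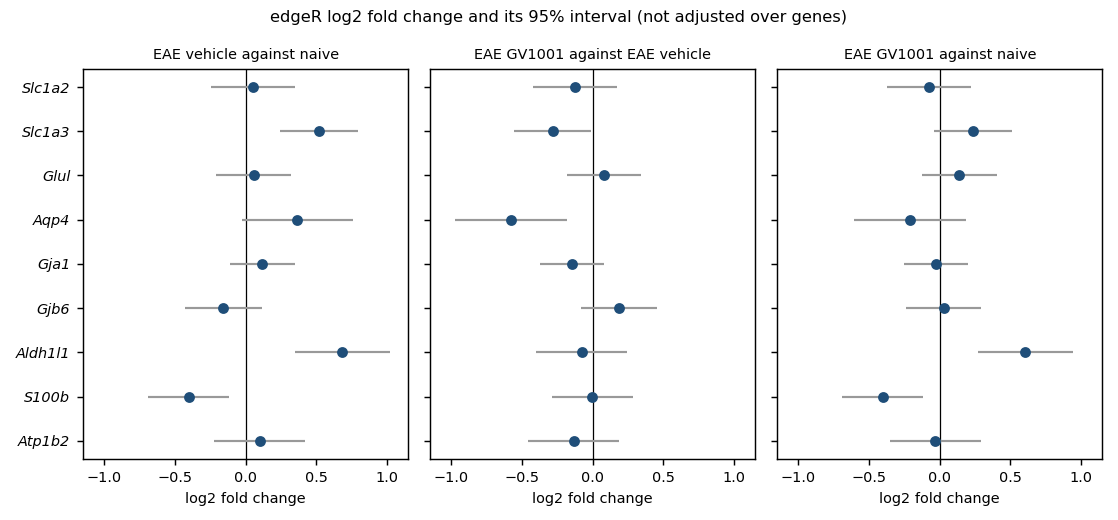
Log2 fold change (horizontal axes) of the 9 genes in the 3 comparisons between groups, from edgeR, with points for the estimate and lines for the 95% interval, not adjusted over genes. Aldh1l1 and Slc1a3 lie to the right and S100b to the left of 0 in EAE vehicle against naive, and Aqp4 lies furthest to the left in GV1001 against vehicle.

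For the effect of disease, vehicle EAE was set against naive. edgeR called 0 of the 9 genes, and 0.0195% of all 15351 tested genes (3 genes, all higher). At an unadjusted p under 0.05 there were 3 of 9, namely Slc1a3, Aldh1l1 and S100b, beside 19.3% of all genes. By position, 2 of 9 had every vehicle library above every naive one, beside 12% of all genes, and 1 of 9 had every vehicle library below, beside 11.7%. The background shares correspond to 1 or 2 genes of 9, so these counts do not set the 9 genes apart. limma-voom also called 0 of 9 and 0% of all genes. DESeq2 called 3 of 9 in this comparison, with 6.52% of its genes: Slc1a3 (log2 0.53, adjusted p 0.00507), Aldh1l1 (0.69, 0.0158) and S100b (−0.39, 0.0355).

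The calls in edgeR changed when vehicle replicate 2 was left out. This library had the lowest microglial score of its group, 1.23, and the cause of the change was not tested. Without it edgeR called 4 of the 9, with 10.4% of all genes. These were Slc1a3 (log2 0.64, adjusted p 0.009), Aqp4, Aldh1l1 (0.64, 0.0416) and S100b (−0.49, 0.0342). Without a filter on low counts edgeR called 1 of 9, Slc1a3 (0.51, adjusted p 0.0499), with 2.02% of all genes. Across the alternatives the adjusted p in vehicle against naive ran from 0.00507 to 0.258 for Slc1a3, from 0.0158 to 0.258 for Aldh1l1 and from 0.0342 to 0.328 for S100b.

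For the effect of the peptide, GV1001 was set against vehicle. Here 7 of 9 log2 fold changes were negative and 2 positive, with a median of −0.12 beside −0.0088 for all genes. edgeR called 0 of 9 and 0% of all genes, and limma-voom did the same. DESeq2 called 0 of 9 and 0.0569% of its genes. At an unadjusted p under 0.05 there were 2 of 9, Aqp4 and Slc1a3, both lower with GV1001, beside 9.08% of all genes. The groups overlapped for all 9, where 5.95% of all genes lay higher and 4.57% lower without overlap. Skeletal muscle genes took 0.0568% to 0.516% of the GV1001 libraries and 0.00821% to 0.0658% of the vehicle libraries, and the part of muscle RNA in these values was not tested.

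Against naive cord, the GV1001 libraries showed the same 3 genes apart. The comparison shares its naive libraries with the one of vehicle. edgeR called 0 of 9 and 0% of all genes, and DESeq2 called 0 of 9 and 0.237% of its genes. At an unadjusted p under 0.05 there were Aldh1l1 and S100b, 2 of 9 beside 7.3%. Slc1a3 and Aldh1l1 lay higher without overlap, 2 of 9 beside 8.84%, and S100b lower, 1 of 9 beside 8.24%.

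With both EAE groups set against naive, 6 libraries against 3, Aldh1l1 differed by 0.64 ± 0.135 on the log2 scale, S100b by −0.40 ± 0.111 and Slc1a3 by 0.38 ± 0.11, with adjusted p of 0.167, 0.18 and 0.19 in edgeR. edgeR called 0 of 9 and 0.00651% of all genes (1 gene), and limma-voom 0 of 9. Unadjusted, 3 of 9 lay under 0.05, beside 15.3% of all genes. Without overlap, 2 of 9 lay higher beside 4.55% of all genes, and 1 of 9 lower beside 3.74%. DESeq2 called these 3 genes, with 3.34% of its genes. Without vehicle replicate 2 edgeR also called Slc1a3 (adjusted p 0.0395), S100b (0.044) and Aldh1l1 (0.0471), with 3.24% of all genes. For the other 6 genes the interval of the difference between EAE and naive lay within −0.297 to 0.422 on the log2 scale.

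The genes were next set against other astrocyte genes in the same library, as log2 CPM minus the mean log2 CPM of 32 general astrocyte genes (identity and metabolism genes outside the 9). On this scale the naive libraries had Glul values of 3.67, 3.60 and 3.71, the vehicle libraries 3.78, 3.80 and 3.75, and the GV1001 libraries 4.02, 3.78 and 3.79. All 6 EAE libraries lay above all naive ones, by 0.16 on average. Aldh1l1 differed by 0.70 and Slc1a3 by 0.43 without overlap, and S100b by −0.34 with overlap between 1 vehicle and 1 naive library. The share of all genes without overlap on this scale was not computed. The reference moved as well. Its mean log2 CPM relative to naive was −0.21, −0.06 and 0.09 in vehicle replicates 1 to 3 and −0.06, −0.12 and −0.02 in GV1001. In naive libraries it lay between −0.05 and 0.03. In CPM, without the reference, Glul overlapped between EAE and naive libraries. The two-sided exact permutation p over 84 assignments of libraries was 0.0119 for Glul and for Aldh1l1, which is the smallest it can give, 0.0357 for Slc1a3 and 0.0238 for S100b. Adjusted over the 36 comparisons made (9 genes in 4 contrasts), these exact p became 0.214, 0.214, 0.277 and 0.277. Even at the smallest possible p, a few genes alone could not pass this adjustment, so it does not decide whether these genes differ. With 1 library left out, which itself raises the smallest p possible, the unadjusted exact p reached up to 0.179 for Glul, 0.107 for S100b, 0.0714 for Slc1a3 and 0.0357 for Aldh1l1. For 3 against 3 libraries the smallest exact p is 0.1, so no gene could pass in those contrasts. Aqp4 was 0.39 higher in vehicle than in naive on this scale and 0.54 lower in GV1001 than in vehicle, with overlap in both.

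Other genes of the same tasks, listed by function, did not pass either. The list of glutamate, glutamine and GABA handling held 26 tested genes, of which edgeR called 0. In vehicle against naive 20 of 26 were negative, with a median of −0.15, and in GV1001 against vehicle 22 of 26 were positive, with a median of 0.13. Both counts rest on the same vehicle libraries. The list's score, its mean log2 CPM relative to naive, stood at −0.35, 0.07 and −0.12 for vehicle replicates 1 to 3 and between −0.01 and 0.02 for naive, so that vehicle replicate 2 lay above all naive libraries and vehicle replicate 1 furthest below. The list also holds genes of neurons, and of the 16 neuron markers 16 were negative, with a median of −0.32, and then 16 positive, with a median of 0.22, in the same comparisons. The part of neuronal RNA in this list's values was not tested. Its most abundant gene, the glutamine carrier Slc38a1, was at 414 CPM in naive and 462 CPM in vehicle libraries (log2 0.16 ± 0.109). Slc7a11, which exports glutamate in exchange for cystine, was at 34.6 ± 6.71 CPM in naive, 63.3 ± 20.5 CPM in vehicle and 53.4 ± 11.6 CPM in GV1001 libraries (SD, n = 3). Its log2 fold change was 0.87 ± 0.246 in vehicle against naive, with an adjusted p of 0.0953 in edgeR.

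The list of water and ion homeostasis held 19 tested genes with 0 calls. In vehicle against naive 12 of 19 were negative, with a median of −0.11. In GV1001 against vehicle 12 of 19 were positive, with a median of 0.06.

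Other gap junction genes included 12 tested of 13 listed, again with 0 calls, 8 of 12 negative and a median of −0.13 in vehicle against naive. The pannexin gene Panx2 differed by −0.59 ± 0.114 (adjusted p 0.0674 in edgeR), from 105 ± 4 CPM in naive to 69.6 ± 8.3 CPM in vehicle libraries. Among the members, the astrocyte connexin genes Gja1 and Gjb6 were at 0.12 and −0.16 in the same comparison.

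The 32 general astrocyte genes gave a median of −0.04 in vehicle against naive, with 13 positive, 19 negative and 0 called. Their most abundant gene, the matrix protein gene Sparcl1, was at 3474 ± 96 CPM in naive and 2833 ± 602 CPM in vehicle libraries (log2 −0.29 ± 0.161). Slc7a10, an amino acid transporter of astrocytes, differed by −0.63 ± 0.15 (adjusted p 0.0725 in edgeR), from 50.9 ± 2.55 to 32.8 ± 7.06 CPM. Both signs therefore occurred within this list as within the 9 genes. The 9 genes' median of 0.10 and this list's median were not tested against each other.

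**Figure D3:**
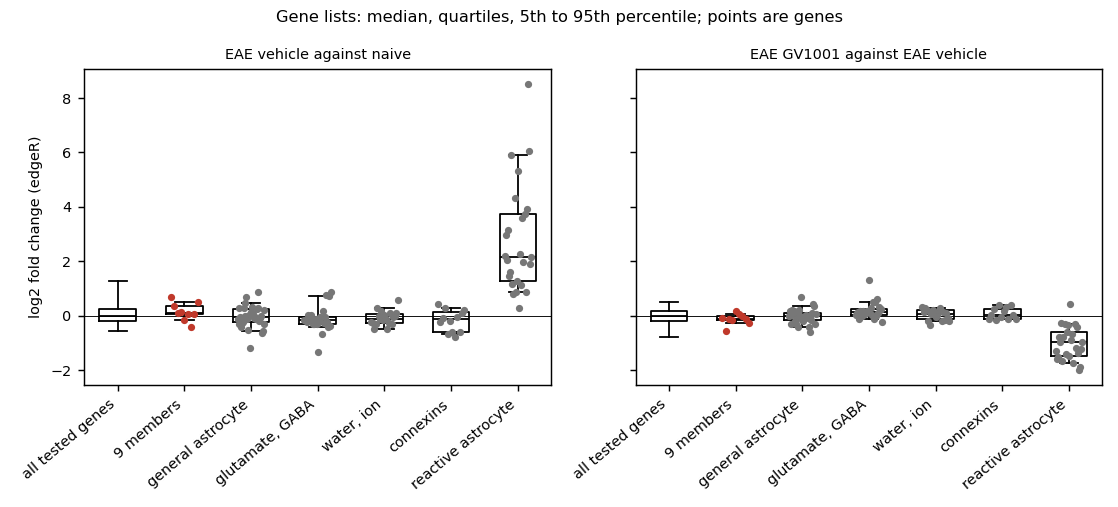
Log2 fold change from edgeR (vertical axis) of all tested genes, the 9 members (red) and 5 other gene lists (grey) in EAE vehicle against naive and EAE GV1001 against EAE vehicle. Boxes give the median and quartiles, whiskers the 5th and 95th percentiles, and points are genes. The members' median is 0.10 and −0.12 in the 2 comparisons, and the reactive astrocyte genes lie apart from the other lists.

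Genes listed for reactive astrocytes showed wider differences in the same libraries, and the part of other cells in their values was not tested. Gfap, the intermediate filament gene, was at 676 ± 136 CPM in naive, 1244 ± 437 CPM in vehicle and 827 ± 387 CPM in GV1001 libraries (log2 0.88 ± 0.346 in vehicle against naive, adjusted p 0.189 in edgeR). Osmr, a receptor subunit for oncostatin M, was at 3.52 ± 1.05, 17.1 ± 5.1 and 9.2 ± 4.31 CPM (log2 2.28 ± 0.396, adjusted p 0.0629). The score of the reactive list is the mean log2 CPM of its 25 tested genes relative to naive. The filter keeps genes that have counts in EAE and few or none in naive cord, so no test is given for this score. It stood at 3.14, 1.4 and 2.36 for vehicle replicates 1 to 3 and at 0.46, 2.32 and 1.13 for GV1001, and lay between −0.20 and 0.29 in naive libraries. The microglia and macrophage score, over 18 genes, stood at 3.92, 1.23 and 2.53 for vehicle and at 0.28, 2.37 and 1.01 for GV1001.

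The levels of 7 members were read beside these scores library by library, as values with no test. Slc1a3 and Aqp4 were highest in vehicle replicates 3 and 1, the 2 libraries with the highest reactive scores. GV1001 replicate 2 had a reactive score of 2.32, close to the 2.36 of vehicle replicate 3, but its Aqp4 was at 368 CPM against 549 and its Slc1a3 at 231 CPM against 317. GV1001 replicate 1 had the lowest reactive score of the EAE libraries, 0.46. Its Slc1a3, at 205 CPM, was the lowest of the 6 EAE libraries. Its Aldh1l1, at 23.5 CPM, was close to the 23.3 CPM of vehicle replicate 1, and its S100b, at 1891 CPM, was the second lowest of the 9 libraries. Gjb6, Atp1b2 and Slc1a2 were lowest in vehicle replicate 1, which had the highest reactive and microglial scores. The part of invading cells in these values was not tested.

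**Figure D4:**
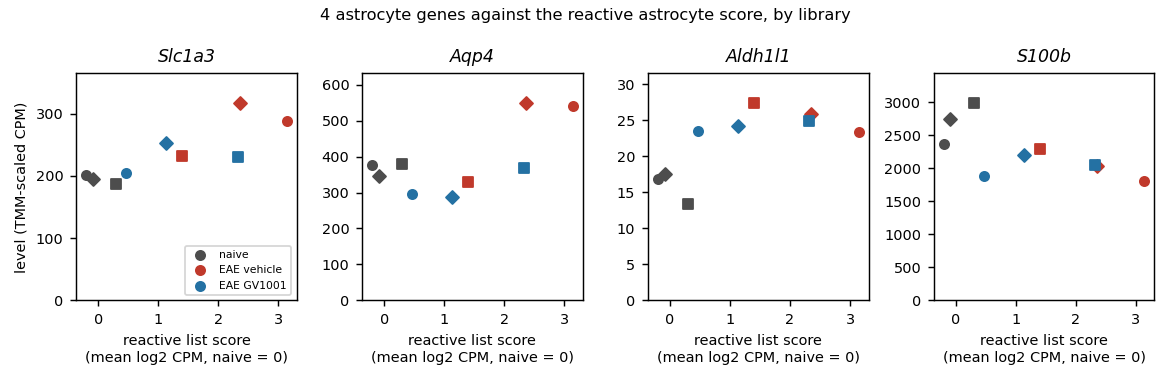
Level of Slc1a3, Aqp4, Aldh1l1 and S100b (vertical axes, TMM-scaled CPM, from 0) against the score of the reactive astrocyte list (horizontal axes, mean log2 CPM relative to naive). Each point is 1 of 9 libraries, coloured by group, with circle, square and diamond for replicates 1 to 3. The Aqp4 values of vehicle replicates 1 and 3, at 541 and 549 CPM, stand above the other 7.

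The mean of the 9 genes, each centred on its own mean, varied little. It lay between −0.12 and −0.01 for naive libraries, between −0.04 and 0.22 for vehicle, where replicate 3 was highest, and between −0.06 and −0.0069 for GV1001. The genes did not share 1 pattern: as a description across 9 libraries, Pearson's r of a gene with the mean of the other 8 ran from 0.669 for Gja1 and 0.654 for Atp1b2 to −0.0082 for Aqp4 and −0.544 for S100b. Among 12387 other genes at a mean of 5 CPM or more, the 5 with the highest r with the mean of the 9 were Sf3b6 (0.916), Anks1 (0.911), Slc41a1 (0.911), Kank1 (0.909) and Jam2 (0.906). These are the top values out of many genes across few libraries and are given as a description. Their log2 fold changes in vehicle against naive ran from 0.23 for Anks1 to 0.37 for Sf3b6.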

How the data were processed

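RNA of 9 mouse spinal cord libraries was sequenced from QuantSeq 3′ mRNA-Seq V2 FWD libraries, after extraction with TRIzol or a Maxwell RSC kit, per the labels; which library had which extraction is not given in the sources used here. The authors deposited raw counts of reads for each gene symbol. FastQC, STAR, HTSeq and build GRCm39 are named in the submitters' processing notes, without versions. The 9 single-library files equal the table of all samples. Genes were filtered with filterByExpr (minimum count 10), scaled by TMM and tested over all 9 libraries, 1 coefficient per group, with edgeR 4.0.16 (R 4.3.3, quasi-likelihood F test, Benjamini-Hochberg, threshold 0.05). Standard errors come from the F statistic. The procedure was tested on simulated data that had the spread of the naive libraries, which is smaller than that of the EAE libraries. Scores used log2 CPM with a prior count of 2. The 9 genes and the lists were chosen with earlier results of these data known. Named in other lists were the most abundant gene and the one with the smallest p in vehicle against naive. Some genes that this rule names are not reported here. Alternatives were DESeq2 1.42.0 (its own filtering), limma-voom (limma 3.58.1), the older quasi-likelihood form, RLE factors, library totals, no filter, the compared groups only, the replicate number as a block, general astrocyte genes as reference and leaving out each library. Figures used matplotlib 3.10.9. Replicates of a group differed by more than sampling noise (chi-square over degrees of freedom 2.52 to 34.5).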

Additional observations from a re-analysis of the deposited data

How the results depend on the processing

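Groups held 3 libraries each, and the lowest level among the members was 13.4 CPM, from 77 counts of Aldh1l1 in naive replicate 2. How far counting noise and the spread between libraries each limited precision was not tested. For the 9 genes, 591 of 639 log2 fold changes under alternatives kept direction and side of the threshold, 14 newly passed and 34 changed sign, all of them values near 0 that did not pass. Slc1a3, Aldh1l1 and S100b against naive never changed sign. The calls among the 9 genes were 3 in DESeq2 and 1 without the filter in vehicle against naive, and 3 in DESeq2 for both EAE groups against naive. Leaving out 1 library gave 0 to 4 and 0 to 3. The cause was not tested.

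Over all genes, the calls in vehicle against naive were 1105 in DESeq2, 543 without the filter, 20 with library totals and 0 in limma-voom, with the replicate block and with astrocyte genes as reference (0 to 1652 leaving out 1 library). In GV1001 against vehicle they were 12 in DESeq2 (0 to 8 leaving out 1 library). In GV1001 against naive they were 45 in DESeq2, 5 with the compared groups only, and 1 with the older form, library totals or no filter (0 to 3). For both EAE groups they were 565 in DESeq2, 20 without the filter, 2 with the older form and 0 in limma-voom, with the replicate block and with astrocyte genes as reference (0 to 514). The same replicate number marked no shared animal or batch in the labels. Correlations of deviations in the 9 same-number pairs ran from −0.501 to 0.248, with 2 above 0.1, so the block stayed an alternative. It changed no member's call.

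Sign changes without leaving out a library were S100b in GV1001 against vehicle (0.0028 in limma-voom, 0.0046 without the filter, 0.0039 with the replicate block and 0.0037 with astrocyte genes as reference), Gja1 in GV1001 against naive (0.00102 with library totals, 0.039 with the reference), Atp1b2 there (0.034 with the reference) and Slc1a2 in both EAE groups (0.021 with library totals, 0.05 with the reference).

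Leaving out 1 library, the ranges in vehicle against naive were −0.0025 to 0.167 for the members' median, −0.0135 to 0.167 for Slc1a2, −0.0053 to 0.131 for Glul and −0.0025 to 0.266 for Atp1b2. In GV1001 against vehicle they were −0.0013 to 0.147 for Glul and −0.0846 to 0.0784 for S100b. In GV1001 against naive they were −0.0961 to 0.0311 for Gja1, −0.00695 to 0.0669 for Gjb6 and −0.089 to 0.0147 for Atp1b2. In both EAE groups they were −0.0744 to 0.0465 for Slc1a2, −0.0243 to 0.0881 for Gja1 and −0.0231 to 0.116 for Atp1b2. Relative to other astrocyte genes they were −0.0675 to 0.0934 for S100b in GV1001 against vehicle, and in GV1001 against naive −0.0952 to 0.0405 for Slc1a2, −0.0043 to 0.0745 for Gja1 and −0.0189 to 0.0642 for Atp1b2. In both EAE groups they were −0.012 to 0.21 for Aqp4 and −0.039 to 0.0378 for Gjb6. On that scale 12 of 279 values no longer had an unadjusted p under the threshold, all in both EAE groups against naive with 1 library left out, for Slc1a3, Glul and S100b.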
